A study of Mus musculus with 4 samples.

Results

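The 33 genes examined here encode the enzymes of glycolysis and of the pentose phosphate pathway, the glucose and lactate carriers, and genes that answer to low oxygen. They were chosen by gene name, with earlier results of these data known, and all 33 were found among the 14936 genes of the deposited table. RNA was measured in mouse bone marrow-derived macrophages, which are grown from bone marrow cells in medium with M-CSF at 20 ng/ml. The 4 libraries were labelled Phlpp1-deficient (KO) after 24 h and after 12 h of IL-4, and wild type (WT) after 24 h and after 12 h of IL-4. IL-4 was given at 20 ng/ml in all of them, so no library shows cells without it. The labels do not give the strain, age or sex of the mice, the allele that removes Phlpp1, or whether libraries came from separate animals or cultures. Each combination of genotype and time had 1 library, so p-values reflect nothing beyond the spread among these 4 libraries, and that spread may be technical.

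Glycolysis splits glucose into pyruvate in the cytosol, and the pentose phosphate pathway branches off after glucose has been phosphorylated, giving NADPH and ribose. Oxygen-dependent hydroxylases of the Egln family mark the subunit encoded by Hif1a for destruction, and when oxygen falls the stabilised factor switches on glycolytic and other target genes. Macrophages activated by bacterial products are known for high glycolysis driven by this factor, whereas macrophages activated by IL-4 are known for oxidative metabolism alongside glucose use. Phlpp1 encodes a phosphatase that removes an activating phosphate from AKT, a kinase known to promote glucose uptake and glycolysis.

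Phlpp1 itself went against the labels, with 2333 and 1751 counts in the libraries labelled KO at 24 h and 12 h, against 564 and 490 counts in those labelled WT. Directions are given by these labels, against which this gene ran (log2 1.93, SE 0.10, edgeR adjusted p = 3.28e-14). Counts per gene do not show whether the transcript is intact, and the allele is not given. If the KO and WT labels were exchanged, every higher and lower call for genotype would be turned round, and whether they were was not tested. Total counts ranged between 36707999 and 41770309 a library, and the 33 genes together took 0.819% to 0.864% of them. All 11 macrophage markers reached 1 CPM (counts scaled to library size) and together had 17323 and 18277 CPM in the libraries labelled KO at 24 h and 12 h, against 21054 and 22285 CPM in those labelled WT, with 6 of 11 called lower and 0 higher. The 8 IL-4 response genes summed to 3941 and 3369 CPM in the libraries labelled KO, against 2586 and 2393 CPM in those labelled WT, and all 8 were called higher. Markers of stromal cells (12 genes) summed to 312 and 278 CPM in the libraries labelled KO against 182 and 166 CPM in those labelled WT, with 9 of 10 tested called higher. Markers of neutrophils and their precursors (10 genes) summed to 709.7 and 829 CPM in the libraries labelled KO, against 993 and 1095 CPM in those labelled WT, with 6 of 9 tested called lower. Lymphocyte markers (8 genes) summed to between 3.38 and 5.77 CPM in the 4 libraries. Of erythroid and megakaryocyte markers 3 of 3 tested were called lower, and of mast cell and basophil markers 2 of 4, with sums no higher than 109 and 11.4 CPM in any library. Whether any of these markers had a part in the values below was not tested, and fewer cells of a type cannot be told apart from less RNA per cell in such samples.

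Promoters are printed for a pair of isozyme genes and a pair of hypoxia targets, because within each pair the genes differed between the genotypes in opposite directions, as described further on. Pfkp (chr13:6648772-6649021, minus strand) and Bnip3 (chr7:138909507-138909756, minus strand) were higher in the libraries labelled KO, and Pfkl (chr10:78009808-78010057, minus strand) and Vegfa (chr17:46032378-46032627, minus strand) were lower. Each sequence is the 250 bases before the RefSeq start site on GRCm38.p6, and capitals mark the core of the hypoxia response element, ACGTG or GCGTG, on either strand.
Pfkp: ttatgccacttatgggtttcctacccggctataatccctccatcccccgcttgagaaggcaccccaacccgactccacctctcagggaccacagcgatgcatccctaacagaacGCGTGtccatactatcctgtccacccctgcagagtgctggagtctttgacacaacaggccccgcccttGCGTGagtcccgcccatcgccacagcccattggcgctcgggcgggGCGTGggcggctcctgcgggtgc
Pfkl: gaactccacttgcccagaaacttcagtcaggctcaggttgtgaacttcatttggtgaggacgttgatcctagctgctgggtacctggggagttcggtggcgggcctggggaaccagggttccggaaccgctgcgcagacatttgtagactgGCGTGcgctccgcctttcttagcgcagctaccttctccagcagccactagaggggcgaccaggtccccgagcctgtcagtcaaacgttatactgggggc
Bnip3: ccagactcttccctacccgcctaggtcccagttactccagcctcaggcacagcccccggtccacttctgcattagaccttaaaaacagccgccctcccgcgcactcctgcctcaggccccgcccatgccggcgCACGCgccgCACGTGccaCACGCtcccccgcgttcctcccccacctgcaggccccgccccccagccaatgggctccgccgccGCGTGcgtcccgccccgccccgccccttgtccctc
Vegfa: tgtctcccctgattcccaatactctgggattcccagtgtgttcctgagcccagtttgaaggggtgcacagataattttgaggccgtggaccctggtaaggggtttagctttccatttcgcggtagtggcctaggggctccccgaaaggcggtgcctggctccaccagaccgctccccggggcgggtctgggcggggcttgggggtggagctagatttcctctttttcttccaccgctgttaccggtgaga
The core was found 3 times in the Pfkp window, once in that of Pfkl, 5 times in that of Bnip3 (a site that reads the same on both strands counts for each strand) and nowhere in that of Vegfa. RefSeq gives Vegfa another start, whose window holds the core 2 times. Members not called for genotype had as many, with 5 in a window of Ldha and 3 in those of Hif1a, P4ha1 and Pgam1. Whether the number of cores went with the direction of the fold was not tested. Over all members, 31 of 33 had the core in at least 1 of their windows (93.9%), beside 41.5% of the 27025 genes with a window. Counted by window, it was 39 of 48 (81.25%), beside 38.6% of all 32851 windows, expressed or not. The members were chosen partly as genes that answer to low oxygen, so the shares here are no test of the set. ACGTG alone was found for 19 of 33 members (57.6%) beside 18.5% of all genes, and the longer E-box CACGTG, which contains ACGTG and is bound by MYC and related factors, for 5 members (15.2%) beside 6.86%. The windows of the members were also richer in G and C, with a median of 60.4% against 52.4% over all windows, and a match of 5 letters is a description, not a bound site.

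Expressed per length as deposited FPKM, the 33 genes spanned a wide range. Aldoa, the main aldolase, was the highest, at 476 and 485 FPKM in the libraries labelled KO at 24 h and 12 h, against 489 and 467 FPKM in those labelled WT. Taldo1, Pkm, Pgd and Eno1 followed, with means over the 4 libraries of 317, 269.7, 214 and 201 FPKM. Egln3, an oxygen-dependent hydroxylase, was the lowest, at 0.567 and 0.490 FPKM in the libraries labelled KO against 0.385 and 0.592 FPKM in those labelled WT. Gapdh, often used to normalise other genes, stood at 49.6 and 56.1 FPKM in the libraries labelled KO, against 56.0 and 56.6 FPKM in those labelled WT, below its neighbours Tpi1 (171 to 202 FPKM) and Pgk1 (162 to 194 FPKM). In the annotation 77 other genes, 74 of them pseudogenes, matched the Gapdh transcript at 95% identity or more over at least 300 bases, against at most 4 for any other member. Of these copies, 1 was in the deposited table, with 0 to 3 counts a library. Whether reads were lost to copies outside the table, or dropped, was not tested, and the level of Gapdh is uncertain. Of the members, Gpi1, Tpi1, Pgk1, Pgam1, Eno1, Pkm, Ldha and Bnip3 also had such copies (1 to 4 each), and their counts could be affected in the same way. Among these, Eno1 alone had a copy in the table, with 141 to 159 counts a library.

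**Figure D1:**
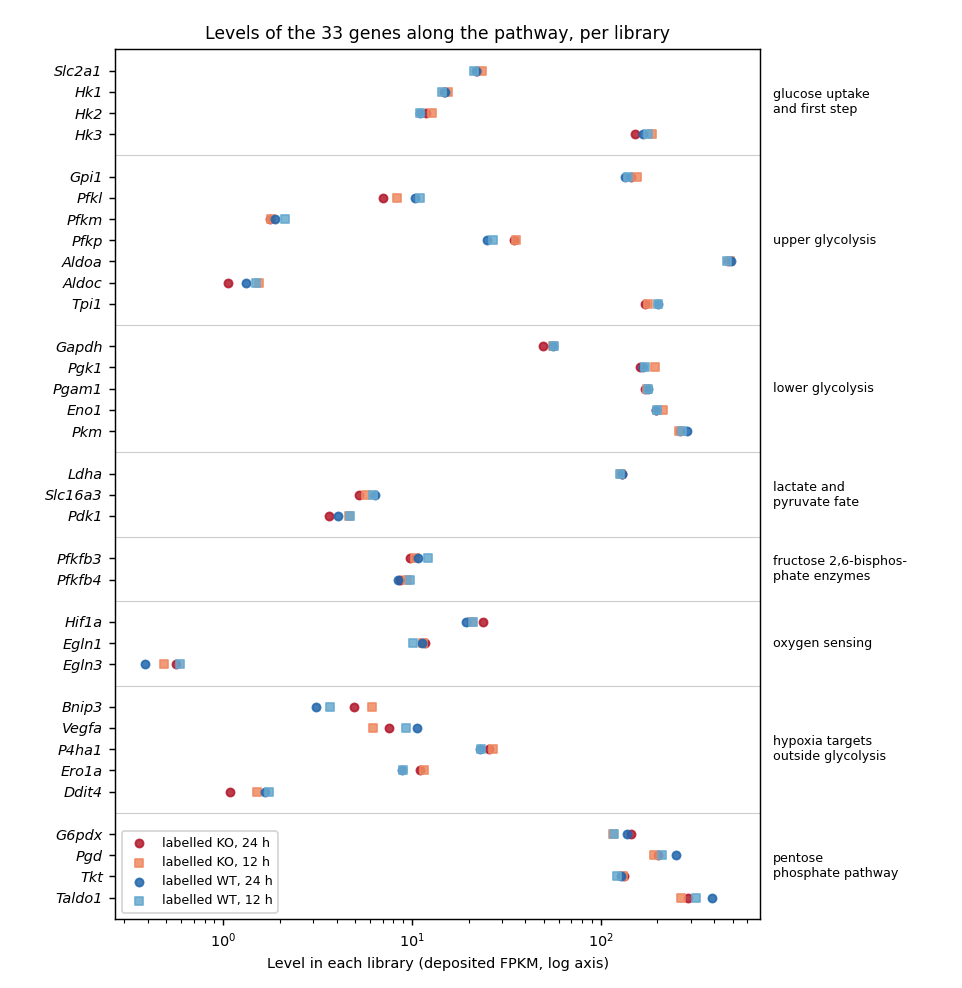
Level of each of the 33 genes in each of the 4 libraries as deposited FPKM on a log axis, grouped by role, with 1 point for each library. Aldoa lies highest (467 to 489 FPKM), Egln3 lowest (0.385 to 0.592 FPKM), and the 4 points of most genes nearly coincide.

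The first comparison asked how macrophages labelled Phlpp1-deficient differed from wild-type ones across both times. Of the 33 genes, 3 were called higher with the KO label (Pfkp, Ero1a and Bnip3) and 5 lower (Pfkl, Tpi1, Vegfa, Pgd and Taldo1), by edgeR's quasi-likelihood test of genotype with time in the model and an adjusted p under 0.05. Over all 10993 genes tested, 4.18% were called higher and 5.34% lower, and for the members the shares were 9.09% and 15.2%. The members were chosen with earlier results of these data known, so these shares are no test of the set. Many members also have high counts, where a small fold is called more readily. At an unadjusted p under 0.05, 3 members were higher and 8 lower (33.3% of them), beside 20.8% of all genes in either direction. The median log2 fold was -0.05 over the members and -0.0025 over all genes, and 27 of the 33 members lay within 0.3 of 0, beside 82.1% of all genes tested. With library totals in place of TMM scaling, 515 genes were called higher and 324 lower over the whole table, against 459 and 587, and 3 and 4 of the members. The call of Tpi1 was the one lost (adjusted p = 0.0593).

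Both libraries labelled KO stood below both labelled WT in CPM for 13 members, where 23.1% of all genes did so, and above them for 5 members, where 21.6% of all genes did so. Under library totals alone these counts were 11 and 9, beside 14.8% and 32.4% of all genes. The 8 calls rest on the additive model, whose residual has 1 degree of freedom. For each of these 8 genes the KO and WT values did not overlap. The sign of its fold could therefore hardly turn when 1 library or the time term was left out. With time left out of the model Pfkl, Pfkp and Vegfa remained called. In fits of 3 libraries, also with genotype alone, 5 of the 8 calls remained when the KO library of 24 h was left out and 3 when that of 12 h was. Leaving out the WT library of 24 h kept 0 of the 8 calls, and leaving out that of 12 h kept 2, and all 8 folds had the same direction in each of these fits.

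**Figure D2:**
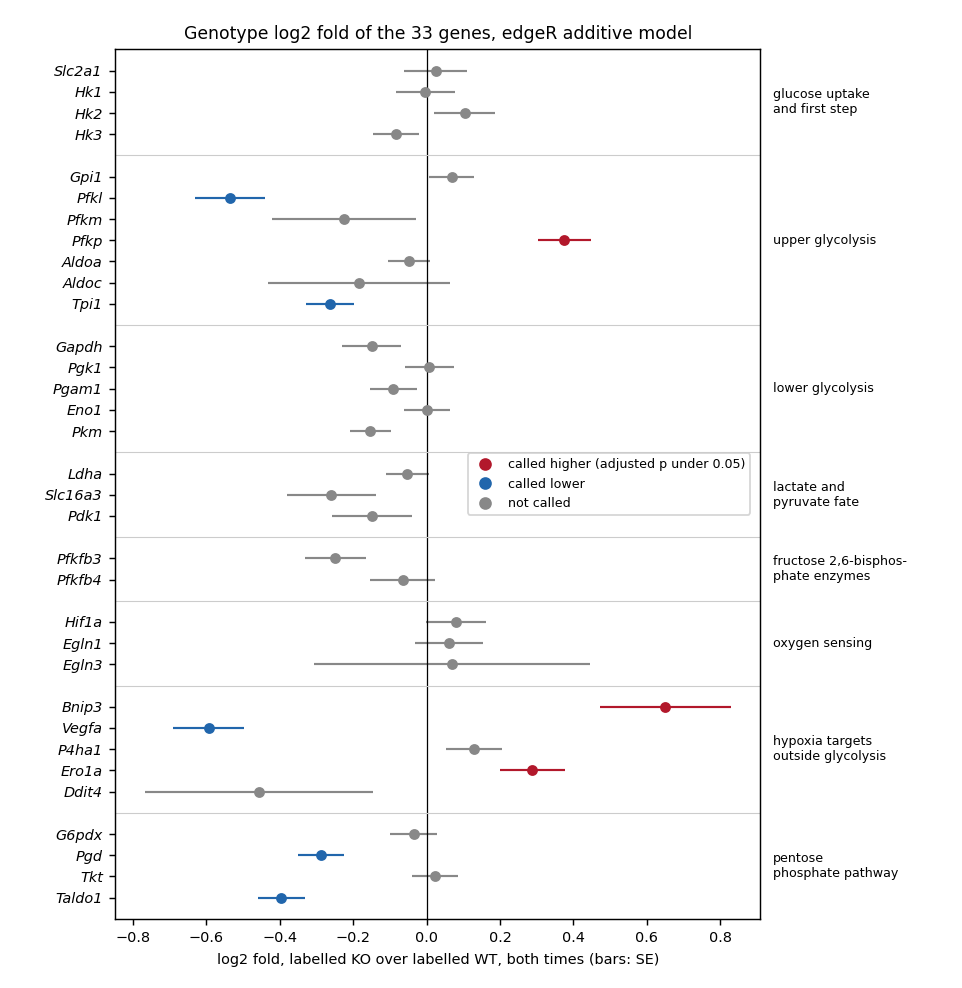
The log2 fold of each of the 33 genes for libraries labelled KO over libraries labelled WT across both times, with standard errors as bars, from the additive edgeR model on 4 libraries. Red genes were called higher and blue genes lower at an adjusted p under 0.05; most grey points lie within 0.3 of 0.

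The largest shift within glycolysis was between the genes of phosphofructokinase, the enzyme of its committed step. Pfkp, the platelet-type isozyme (chromosome 13, 6579768 to 6648777), had 152 and 155 CPM in the libraries labelled KO at 24 h and 12 h, against 115 and 122 CPM in those labelled WT. Pfkl, the liver-type isozyme (chromosome 10, 77986947 to 78010083), had 28.3 and 33.3 CPM in the libraries labelled KO, against 43.6 and 45.4 CPM in those labelled WT. The groups did not overlap for either gene, and the isozymes differed in opposite directions at both times. Pfkp had a log2 fold of 0.37 (SE 0.07, edgeR adjusted p = 0.000584) and Pfkl one of -0.54 (SE 0.10, adjusted p = 0.000204).

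Measured per length, Pfkp made up 79.7% and 77.8% of the phosphofructokinase FPKM in the libraries labelled KO at 24 h and 12 h, and 67.2% in each library labelled WT. Pfkl made up 16.2% and 18.3% in the libraries labelled KO, against 27.8% and 27.5% in those labelled WT. The summed FPKM of the 3 genes was 43.4 and 45.7 in the libraries labelled KO, against 37.4 and 40.03 in those labelled WT. Pfkm, the muscle-type isozyme, had 5.79 and 5.80 CPM in the libraries labelled KO against 6.39 and 7.17 CPM in those labelled WT and was not called (log2 -0.22, SE 0.20, edgeR adjusted p = 0.589). Exons of Pfkp share 748 bases with Pitrm1 on the other strand, and strandedness is not stated. Pitrm1 had 72.8 and 71.2 CPM in the libraries labelled KO, against 64.8 and 65.6 CPM in those labelled WT (log2 0.14, edgeR adjusted p = 0.352). Exons of other members overlap genes too, among them Pkm (767 bases), Pfkm (341) and Hif1a (148) on the same strand. Gpi1 (741 bases) and Hif1a (330) do so on the other strand. Those partner genes were absent from the deposited table, and their part in the counts was not tested.

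**Figure D3:**
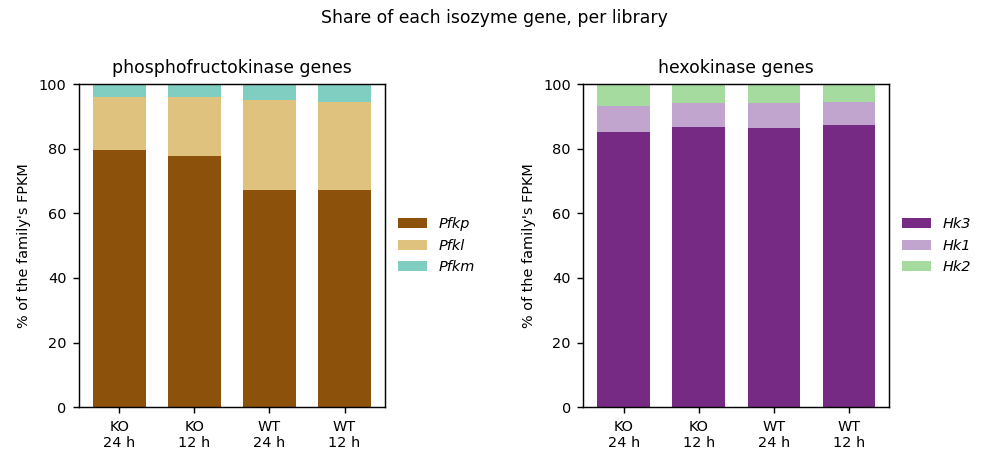
Share of each gene in the summed FPKM of its family, in percent, for phosphofructokinase (left) and hexokinase (right), with 1 bar for each library. Pfkp takes 79.7% and 77.8% in the libraries labelled KO and 67.2% in both labelled WT, while Hk3 takes 85.1% to 87.5% of the hexokinase FPKM in all 4.

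Among the genes that bring glucose in and phosphorylate it, 0 of 4 were called for genotype by edgeR, 0 had an unadjusted p under 0.05, and DESeq2 called 0. Slc2a1, the glucose transporter GLUT1, had 57.5 and 61.1 CPM in the libraries labelled KO at 24 h and 12 h and 59.6 and 57.0 CPM in those labelled WT (log2 0.02, SE 0.09). Hk3, a hexokinase typical of myeloid cells, was the main hexokinase gene, with 522 and 635 CPM in the libraries labelled KO against 596 and 625 CPM in those labelled WT (log2 -0.08, SE 0.06). Hk2, the inducible hexokinase, had 70.5 and 74.6 CPM in the libraries labelled KO, against 67.9 and 67.1 CPM in those labelled WT, groups that did not overlap and differed by 0.10 (SE 0.08). Hk1, the housekeeping hexokinase, lay between 78.8 and 82.8 CPM in the 4 libraries.

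Further down, Tpi1 (chromosome 6, 124810586 to 124814296), which interconverts the triose phosphates, was called lower. It had 248 and 256 CPM in the libraries labelled KO at 24 h and 12 h, against 305 and 299 CPM in those labelled WT (log2 -0.26, SE 0.06, edgeR adjusted p = 0.00656). Spsb2, which shares 34 exon bases with it on the other strand, had log2 -0.33 (adjusted p = 0.0559). Gpi1, which isomerises glucose 6-phosphate, had 409.6 and 439 CPM in the libraries labelled KO, against 399 and 411 CPM in those labelled WT (log2 0.07, SE 0.06). Aldoa had log2 -0.05 (SE 0.06), and Aldoc, a second aldolase at 3.00 to 4.36 CPM, had log2 -0.18 (SE 0.25).

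None of the 5 genes of lower glycolysis was called for genotype by edgeR or by DESeq2, and 1 of them, Pkm, had an unadjusted p under 0.05. Pkm, the pyruvate kinase, had the highest CPM of the members, with 1578 and 1548 CPM in the libraries labelled KO against 1814 and 1667 CPM in those labelled WT. Its groups did not overlap (log2 -0.15, SE 0.06, edgeR adjusted p = 0.0839), and it was called lower with no filter on low counts (adjusted p = 0.0482). Pgk1, Pgam1 and Eno1, which carry triose phosphate to phosphoenolpyruvate, had log2 folds of 0.01, -0.09 and 0.0019, with SEs of 0.06 to 0.07. Pgk1 had 291 and 345 CPM in the libraries labelled KO, against 314 and 317 CPM in those labelled WT, and Eno1 had 390.4 and 418 CPM in the libraries labelled KO, against 405 and 402 CPM in those labelled WT. Both WT values lay between the KO values for each gene. Gapdh had 84.8 and 95.1 CPM in the libraries labelled KO, against 99.97 and 99.4 CPM in those labelled WT (log2 -0.15, SE 0.08). Iffo1, which shares 68 exon bases with Gapdh on the other strand, had log2 0.38 (edgeR adjusted p = 0.0534).

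At the end of the pathway, 0 of 3 genes were called for genotype by edgeR or DESeq2, and 1, Slc16a3, had an unadjusted p under 0.05. Ldha, which turns pyruvate into lactate, had 679.5 and 668 CPM in the libraries labelled KO, against 717 and 682 CPM in those labelled WT (log2 -0.05, SE 0.06). Slc16a3, the lactate exporter MCT4, had 17.8 and 19.3 CPM in the libraries labelled KO against 22.7 and 21.6 CPM in those labelled WT (log2 -0.26, SE 0.12, edgeR adjusted p = 0.213). Pdk1, a kinase that holds back pyruvate dehydrogenase, had log2 -0.15 (SE 0.11). Of the enzymes that make the allosteric activator of phosphofructokinase, Pfkfb3 had 61.4 and 64.7 CPM in the libraries labelled KO against 71.0 and 79.03 CPM in those labelled WT. It missed the threshold (log2 -0.25, SE 0.08, edgeR adjusted p = 0.0541), passed it with no filter and with a minimum of 5 CPM (adjusted p = 0.0498 and 0.0456), and was not called by DESeq2. Pfkfb4 had log2 -0.07 (SE 0.09).

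Of the 5 hypoxia targets outside glycolysis, 2 were called higher and 1 lower, beside 4.18% and 5.34% of all genes tested. Bnip3 (chromosome 7, 138890836 to 138909519), which encodes a mitochondrial receptor for mitophagy, had 8.56 and 10.6 CPM in the libraries labelled KO at 24 h and 12 h, against 5.64 and 6.54 CPM in those labelled WT. It was higher with a log2 fold of 0.65 (SE 0.18, edgeR adjusted p = 0.0158), and had 4 near-identical copies in the annotation and an antisense gene, Gm45507, over 504 bases of its exons, not analysed here. Ero1a (chromosome 14, 45283087 to 45318771), an oxidase that forms disulfide bonds in the endoplasmic reticulum, had 48.0 and 50.2 CPM in the libraries labelled KO, against 40.2 and 40.1 CPM in those labelled WT. It was higher by 0.29 (SE 0.09, edgeR adjusted p = 0.0373). DESeq2 called neither Bnip3 nor Ero1a (adjusted p = 0.204 and 0.268).

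Vegfa (chromosome 17, 46016993 to 46032369), the vascular growth factor gene, had 31.1 and 25.4 CPM in the libraries labelled KO at 24 h and 12 h, against 45.9 and 39.2 CPM in those labelled WT. It was lower at log2 -0.59 (SE 0.10, edgeR adjusted p = 5.37e-05), and the fold was 0.676 between the 24 h libraries, with an exact 95% binomial interval of 0.627 to 0.730, and 0.649 between the 12 h libraries, with one of 0.600 to 0.702. These intervals compare single libraries and cover counting error only. P4ha1, a collagen prolyl hydroxylase, had log2 0.13 (SE 0.08, edgeR adjusted p = 0.369), with groups that did not overlap. Ddit4, an inhibitor of mTORC1, was low, with 1.80 and 2.50 CPM in the libraries labelled KO against 2.88 and 2.98 CPM in those labelled WT (log2 -0.46, SE 0.31).

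The oxygen-sensing genes themselves were not called for genotype by edgeR or by DESeq2, with 0 of 3 at an unadjusted p under 0.05. Hif1a had 117 and 101 CPM in the libraries labelled KO at 24 h and 12 h, against 99.2 and 106 CPM in those labelled WT. At 24 h the KO library was the highest of the 4, and at 12 h it was below its WT counterpart, so the groups overlapped (log2 0.08, SE 0.08). Egln1, the main hydroxylase of the factor, had 40.9 and 39.5 CPM in the libraries labelled KO, against 41.3 and 36.0 CPM in those labelled WT. Egln3 lay between 1.22 and 1.84 CPM, where counts of 44 to 76 leave a wide error (log2 0.07, SE 0.38).

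In the pentose phosphate pathway, 2 of 4 genes were called lower and 0 higher, beside 5.34% and 4.18% of all genes tested. With 4 genes of high counts, these calls are no test of the pathway. Taldo1 (chromosome 7, 141392199 to 141402968), the transaldolase of the non-oxidative branch, had 367 and 332 CPM in the libraries labelled KO at 24 h and 12 h, against 509 and 414 CPM in those labelled WT. Pgd (chromosome 4, 149149991 to 149166771), which oxidises 6-phosphogluconate and forms NADPH, had 454 and 427 CPM in the libraries labelled KO, against 593 and 489 CPM in those labelled WT. For both genes the groups did not overlap and the gap was wider at 24 h. Taldo1 was lower at log2 -0.40 (SE 0.06, edgeR adjusted p = 4.77e-05) and Pgd at log2 -0.29 (SE 0.06, adjusted p = 0.00216). Leaving out 1 library moved Taldo1 between -0.54 (without WT at 12 h) and -0.25 (without WT at 24 h), and its call was lost without KO at 12 h and without WT at 24 h (adjusted p = 0.0977 and 0.655). For Pgd the range was -0.43 (without WT at 12 h) to -0.15 (without WT at 24 h), and its call was lost in all 4 of these fits (adjusted p from 0.0829 to 0.906) and with time left out of the model (adjusted p = 0.199).

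The other 2 genes of the pathway were close between the genotypes. G6pdx, the glucose-6-phosphate dehydrogenase that opens the pathway, had 333 and 266 CPM in the libraries labelled KO, against 333 and 279 CPM in those labelled WT (log2 -0.04, SE 0.06). Tkt, the transketolase that works beside transaldolase, had 423 and 413 CPM in the libraries labelled KO, against 423 and 400.2 CPM in those labelled WT (log2 0.02, SE 0.06). Per length, the 4 genes summed to 771 and 705 FPKM in the libraries labelled KO at 24 h and 12 h, against 906 and 772 FPKM in those labelled WT. These sums also carry no TMM scaling.

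**Figure D4:**
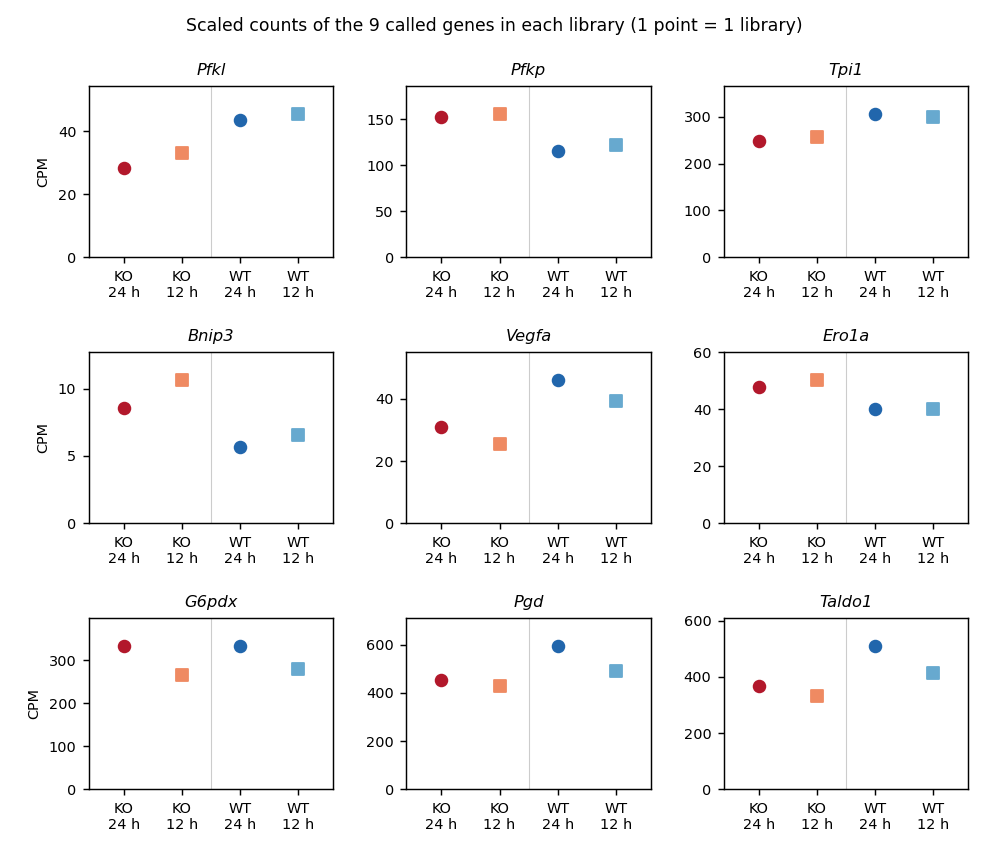
CPM of the 9 members called for genotype or time, with 1 point for each library and axes that start at 0, libraries labelled KO on the left of each panel and those labelled WT on the right. In each panel except that of G6pdx the KO points lie entirely above or entirely below the WT points; in that of G6pdx the 24 h points (333 and 333 CPM) lie above the 12 h points (266 and 279 CPM).

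Within each time there was 1 library a genotype, so ratios are values with no test. At 24 h, 1 member (Bnip3) was higher and 2 (Pfkl and Vegfa) lower by at least 0.5 on the log2 scale of CPM plus 1, where 4.69% and 3.86% of all genes with at least 1 CPM were. At 12 h, Bnip3 was again the 1 higher and Vegfa the 1 lower, where 3.98% and 3.4% of all genes were. The sign of the ratio was the same at both times for 23 of 33 members, beside 6846 of the 10993 genes tested. The largest difference between the times was that of Egln3, followed by Hif1a, whose ratio was 0.23 at 24 h and -0.07 at 12 h. Pgk1 had a ratio of -0.11 at 24 h and 0.12 at 12 h, and Hk3 one of -0.19 at 24 h and 0.02 at 12 h.

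The second comparison asked how the genes changed between 12 h and 24 h of IL-4 over both genotypes. G6pdx (X chromosome, 74409483 to 74429194) was the 1 member called, higher at 24 h with a log2 fold of 0.29 (SE 0.06, edgeR adjusted p = 0.00922), beside 0.955% of all genes called higher and 1.13% called lower. It was 1.25-fold higher at 24 h in the libraries labelled KO (exact 95% counting interval 1.22 to 1.28) and 1.19-fold higher in those labelled WT (1.16 to 1.22). Ikbkg, which shares 418 exon bases with G6pdx on the other strand, had log2 0.06 (edgeR adjusted p = 0.860). No member was called lower at 24 h by edgeR or by DESeq2, and 4 were higher and 2 lower at an unadjusted p under 0.05, beside 12.2% of all genes in either direction. The call of G6pdx was lost with library totals alone (adjusted p = 0.0537), with genotype left out of the model (adjusted p = 0.999) and in each fit of 3 libraries, while DESeq2 kept it.

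All 4 pentose phosphate members had higher CPM at 24 h than at 12 h in both genotypes, in ratios between single libraries. The share of all genes that did so was not counted, so these directions are no test of the pathway. Of the 4 members, G6pdx alone was called in the main model. The log2 folds over time of the other 3 were 0.22 for Taldo1 (SE 0.06, edgeR adjusted p = 0.0643), 0.18 for Pgd (SE 0.06, adjusted p = 0.162) and 0.06 for Tkt (SE 0.06, adjusted p = 0.802). Taldo1 was called with no filter and with a minimum of 5 CPM (adjusted p = 0.0310 and 0.0444). Of the 8 pentose phosphate genes tested outside the members, 0 were called over time, and their median log2 fold was -0.037. Vegfa had 0.26 (SE 0.10, adjusted p = 0.215) and was higher at 24 h in both genotypes. Among the glycolytic genes, Hk3 had log2 -0.18 (SE 0.06, edgeR adjusted p = 0.186) and Pdk1 had log2 -0.26 (SE 0.11, adjusted p = 0.304), lower at 24 h in both genotypes.

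Between single libraries, no member changed by 0.5 or more on the log2 scale between 12 h and 24 h, 0 of 33 in either direction in either genotype. Of all genes, 2.33% were higher and 2.3% lower by that much in the libraries labelled KO, and 1.55% and 1.85% in those labelled WT. The ratio of 24 h over 12 h was lower in the libraries labelled KO than in those labelled WT for 25 of 33 members, beside 51.4% of all genes, and this count was 25 under each of the 3 scalings. The median ratio of the members was -0.06 in the libraries labelled KO and 0.01 in those labelled WT, beside -0.0056 and -0.0024 over all genes. Under library totals alone the median in the libraries labelled WT was below 0, at -0.01. Among these 25 members the gap was widest for Ddit4 and Aldoc, both under 5 CPM. More abundant ones included Hk3 (log2 ratio -0.28 in KO and -0.07 in WT), Pgk1 (-0.24 in KO and -0.02 in WT) and Pfkl (-0.23 in KO and -0.06 in WT). Others rose in both genotypes and less in KO, as did Pgd (0.09 in KO and 0.28 in WT) and Taldo1 (0.14 in KO and 0.30 in WT). Hif1a had the higher ratio in KO, at 0.21 in KO and -0.10 in WT. The difference between the genotypes in these ratios has no test, since it forms the residual of the model.

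**Figure D5:**
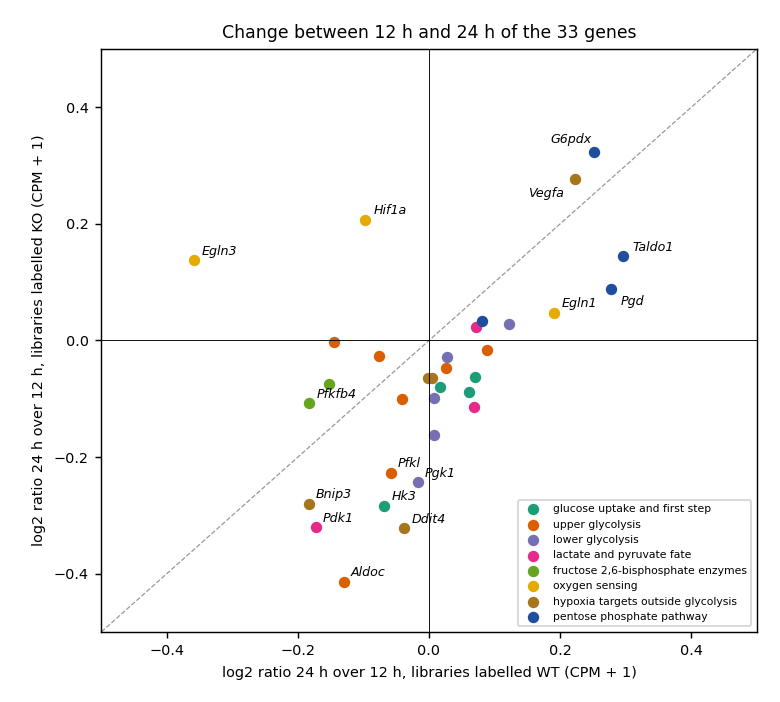
The log2 ratio of 24 h over 12 h (CPM plus 1) of the 33 genes in the libraries labelled KO (vertical axis) and in those labelled WT (horizontal axis), coloured by role, with the line of equal ratios dashed. The pentose phosphate members lie in the upper right quadrant, with Tkt near the origin. Of the 33 points, 25 lie below the dashed line, and Hif1a lies above it at 0.21 in KO and -0.10 in WT.

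Beyond the members, 131 other genes of glucose metabolism and oxygen sensing were listed, of which 106 were tested, with 7 called higher and 8 lower for genotype. The background shares are those given above, 4.18% and 5.34%. Of 8 other pentose phosphate genes, 1 was called higher and 1 lower. H6pd, the glucose 6-phosphate dehydrogenase of the endoplasmic reticulum, had 65.8 and 58.6 CPM in the libraries labelled KO at 24 h and 12 h, against 99.1 and 81.5 CPM in those labelled WT (log2 -0.53, SE 0.08, edgeR adjusted p = 2.57e-05). Prps1, which activates ribose phosphate for nucleotide synthesis, had 32.7 and 40.5 CPM in the libraries labelled KO, against 22.7 and 29.2 CPM in those labelled WT (log2 0.50, SE 0.10, adjusted p = 0.000910). For neither gene did the groups overlap.

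Of the factors that respond to glucose or drive glycolytic genes, 3 of 6 tested were called higher and 0 lower. Of all genes tested, 4.18% were called higher and 5.34% lower. Myc, the transcription factor gene, had 40.3 and 41.4 CPM in the libraries labelled KO, against 24.6 and 25.1 CPM in those labelled WT (log2 0.72, SE 0.10, edgeR adjusted p = 5.19e-06). Txnip, which restrains glucose uptake, was higher by 0.29 (SE 0.07), and its relative Arrdc4 by 0.41 (SE 0.11). DESeq2 called 2 of the 6 higher. Of 14 other isoforms and regulators of glycolysis, Slc2a3, the glucose transporter GLUT3, was the 1 called, lower at log2 -0.52 (SE 0.16, edgeR adjusted p = 0.0293), and DESeq2 called 0.

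Of 35 other targets of the hypoxia factor, 3 were called higher and 3 lower, beside 4.18% and 5.34% of all genes tested. The higher ones included Bhlhe40, a clock-related repressor (log2 0.34), and Lox, which crosslinks collagen (log2 0.48). The lower ones were Angptl4, an inhibitor of lipoprotein lipase (log2 -0.64), Plod1, a collagen lysyl hydroxylase (log2 -0.39), and Bhlhe41, a paralog of Bhlhe40 (log2 -0.32). Stromal markers, whose sums are given above, were also higher in the libraries labelled KO, and their part in Lox was not tested. Over time, 3 were called higher at 24 h, among them Angptl4 (log2 0.53) and Lox (log2 0.39), and 2 lower, Mif (log2 -0.36) and Tfrc (log2 -0.29), while DESeq2 called 0 higher and 1 lower. Among 12 subunits and regulators of the factor, Arnt2 was the 1 called, lower at log2 -1.93 (SE 0.49, edgeR adjusted p = 0.00811), with 0.268 and 0.588 CPM in the libraries labelled KO against 2.16 and 1.24 CPM in those labelled WT, and DESeq2 called 0.

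Of 19 genes of gluconeogenesis and glycogen, 2 were called lower and 0 higher, beside 5.34% and 4.18% of all genes tested. The lower ones were Phka1, a subunit of phosphorylase kinase (log2 -0.88), and Pygb, a glycogen phosphorylase (log2 -0.32), and DESeq2 called 0. Of 12 genes for the entry of pyruvate into mitochondria, 0 were called by edgeR and 0 by DESeq2, while 2 were higher and 1 lower at an unadjusted p under 0.05.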

How the data were processed

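Poly(A) RNA of mouse macrophages was sequenced, 1 library for each genotype and time. The authors deposited counts (whole numbers) and FPKM for each gene. The submitters' processing notes name mm10, edgeR, HISAT2 and StringTie 1.3.0 without saying what each did; the counter, the annotation and the strand setting were not given in the sources used here. FPKM, per the file headers, served to compare levels between genes and for family sums and shares. It was used as deposited, without TMM scaling. All other values were computed from the deposited counts, of 36707999 to 41770309 a library.

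Counts were scaled by TMM in edgeR 4.0.16 (R 4.3.3) and expressed as CPM. An additive model (genotype and time) over the 4 libraries was fitted to 10993 genes (1 CPM or more in 2 or more libraries), and tested two-sided with edgeR's quasi-likelihood test and Benjamini-Hochberg adjustment over all of them. A gene with an adjusted p under 0.05 is called. Each SE is the absolute log2 fold over the root of its F. The common dispersion was 0.00602. The scripts were tested on simulated data. Ratios between 2 libraries are log2 of CPM plus 1, and folds between 2 libraries carry exact 95% binomial intervals, which cover counting error only, since the labels mention no molecular identifiers. Alternatives were RLE scaling, library totals, no filter, a minimum of 5 CPM, DESeq2 1.42.0, models with 1 factor, and each library left out. Positions are from GENCODE M21 on GRCm38, promoters from RefSeq (GRCm38.p6), matched by symbol for all 33 genes, 1 of them (Ero1a) in GENCODE through an older symbol. Near-identical copies were found with BLAST 2.17.0. All 33 members are given. Genes of the other lists are named where called, at most 6 a list by size. The values of 1 called gene of these lists are not reported here. The members and lists were chosen with earlier results of these data known.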

Additional observations from a re-analysis of the deposited data

Results flagged for a closer look

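With TMM scaling, the genotype ratio of 3 members pointed in opposite directions at 24 h and 12 h. Both counting intervals excluded a fold of 1 for each. The share of all genes that did so was not counted, and these intervals are narrower for genes with more counts. Library totals in place of TMM raised the median log2 ratio over all genes by 0.058 at 24 h. That exceeds the size of the Eno1 ratio at 24 h (-0.052), so its direction there depends on the scaling. At 12 h the median rose by 0.049, beside -0.074 for Hif1a. The difference between the times was not tested, since each ratio rests on 1 library a genotype. Hif1a was 1.18-fold in the library labelled KO over that labelled WT at 24 h and 0.950-fold at 12 h, a difference of 0.31 on the log2 scale. The same libraries give Hif1a a ratio of 24 h over 12 h that was above 1 in those labelled KO (1.16-fold) and below 1 in those labelled WT (0.934-fold). Pgk1 was 0.929-fold at 24 h and 1.09-fold at 12 h, a log2 difference of -0.23. Eno1 was 0.965-fold at 24 h and 1.04-fold at 12 h, a log2 difference of -0.11, and its near-identical relative Eno1b, at 3.70 to 4.37 CPM, could share its reads.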

How the results depend on the processing

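The 8 genotype calls among the members were kept under RLE scaling, with no filter and with a minimum of 5 CPM, where Aldoc, Egln3 and Ddit4 were not tested. Over these and the other settings no called fold changed sign, in 80 genotype values and 10 time values, while 23 genotype values of 15 uncalled members and 36 time values of 22 uncalled members did. For the called members this was largely fixed in advance, because the groups compared did not overlap for any of them. For genotype, all-gene counts were 459 higher and 587 lower. Library totals alone gave 515 higher and 324 lower, DESeq2 219 and 298, and the model without time 112 and 147. DESeq2 called 1 member higher and 5 lower, and the model without time 1 higher and 2 lower. Leaving out 1 library gave 71 to 245 genes higher and 75 to 332 lower, with 0 to 2 members higher and 0 to 3 lower. These fits hold 3 libraries and no time term.

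For time, all-gene counts were 105 higher and 124 lower. Library totals alone gave 56 higher, with 0 members higher, and DESeq2 53 higher and 55 lower. With no filter, and with a minimum of 5 CPM, 2 members were higher. Leaving genotype out of the model, or leaving out any 1 library, gave 0 genes higher and 0 lower and 0 members. At 24 h, 1 member was lower by at least 0.5 with library totals alone, against 2. With a pseudocount of 0.25 CPM, 405 genes were higher and 436 lower at 24 h in the libraries labelled KO (259 and 255 with 1 CPM), and 315 and 331 in those labelled WT (171 and 204), with 1 member lower. The causes were not tested. No pairing by animal or culture was possible because the labels give no replicate numbers and each genotype and time has 1 library. The additive model compared the genotypes with time taken into account.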
